A study of Caenorhabditis elegans with 2 samples.

Results

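The subject is the set of 3′ ends of the nuclear hormone receptor genes of Caenorhabditis elegans, taken as the genes named nhr- with a number in the annotation of assembly WBcel235. There are 269 such protein-coding genes, and 13 of them met the rule for a 3′ interval: an interval of the deposited list covered at least 10 nt of the stop codon and 3′ UTR, or it began no more than 60 nt upstream of the last base of the stop codon. The whole list held 4818 intervals and met the 3′ ends of 4239 protein-coding genes. The other 256 nhr genes had no 3′ interval.

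Nuclear hormone receptors are transcription factors that bind DNA through a zinc finger domain and, in many cases, a small lipophilic ligand through a second domain. The worm has far more of these genes than insects or mammals, and most of them derive from an expanded group related to the vertebrate receptor HNF4, while a smaller set has direct counterparts in flies and vertebrates. Members with known roles act in moulting, developmental timing, neuron and gonad development, fat metabolism and the response to toxins. The 3′ UTR, which follows the stop codon in the mRNA, holds sites through which microRNAs and RNA-binding proteins act.

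The series mapped 3′ UTR forms by sequencing RACE clones, that is, cDNA 3′ ends amplified by PCR and cloned. The material was total RNA of N2 worms, the wild-type laboratory strain, of mixed stages. First-strand cDNA was primed with oligo-dT and amplified with 1 forward primer per targeted transcript, and the products of 6432 minipools of transformed bacteria were read by pyrosequencing. The list is recorded for this run. A second labelled run, with 49152 barcoded products and 5952 minipools without barcodes, has no list of its own here. With 1 library there is no replicate and no test between groups, and the read depth is unknown because the list gives positions only. Intervals given with shares are exact Clopper-Pearson 95% confidence intervals and cover counting error only. The sources used here do not say which genes had a forward primer, so a missing interval cannot be told apart from a gene that was not targeted.

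Coordinates below are in the numbering of the list, and the sources used here do not name its build. To lay the list on the annotation, each 1 Mb window was moved by the shift that best placed the 5′ edges before stop codons of genes other than nhr genes. The shifts at the 13 nhr intervals ran from −5 nt (nhr-204) to 99 nt (nhr-61). A second estimate, from annotated transcript ends of the 15 nearest intervals, differed from them by at most 4 nt. It was not independent, since it kept only ends that the first shift had placed within 20 nt of an annotated end. Distances to stop codons and annotated ends should be read as good to a few nt at best, whereas interval lengths do not depend on the shift. All such distances were counted along the genome, with any intron included.

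Few receptor genes had a 3′ interval. The 13 of 269 nhr genes made up 4.83% (2.60 to 8.12), against 4239 of 19973 protein-coding genes or 21.2% (20.7 to 21.8). An interval that started at the stop codon was found for 9 nhr genes (3.35%, 1.54 to 6.26), against 16.4% of all genes. An interval for which the gene was the single best placed one was found for 8 nhr genes (2.97%, 1.29 to 5.78), against 18.1% of all genes. No nhr gene had more than 1 end, but the list holds no overlapping intervals, so shorter and longer forms with a common start could not be counted. More than 1 interval was rare over all genes too, with 4331 pairs of a gene and an interval for 4239 genes.

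**Figure D1:**
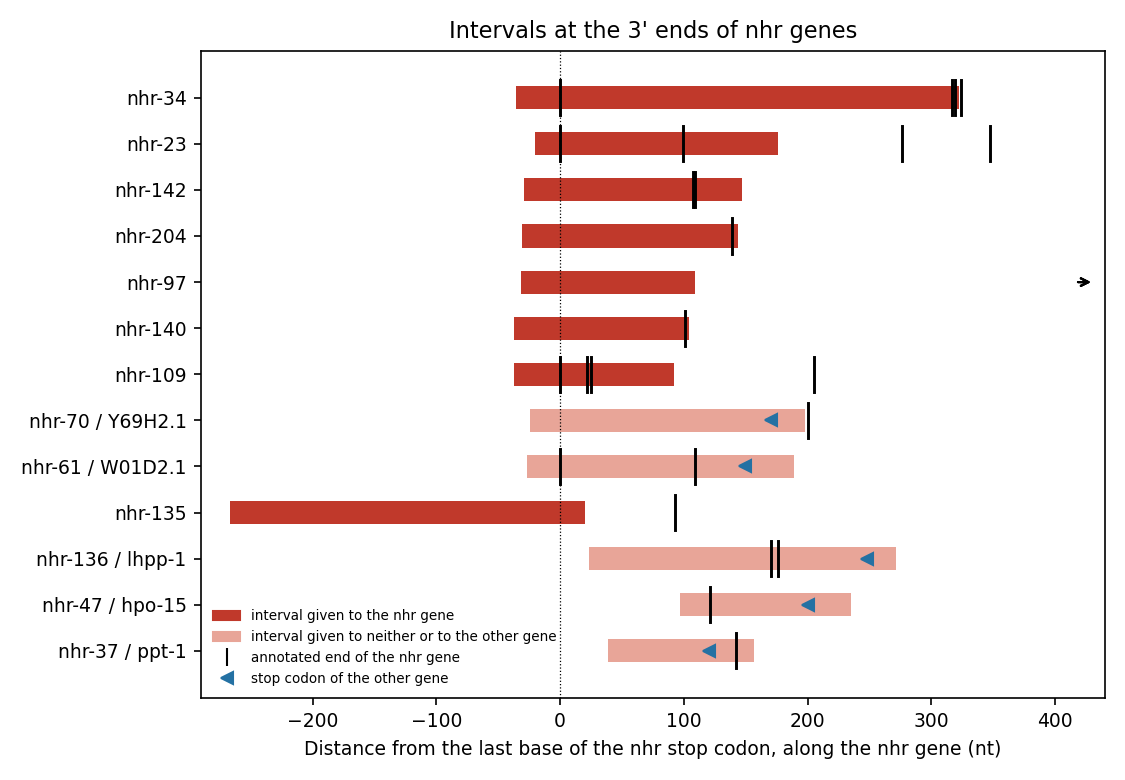
Each of the 13 intervals drawn along its nhr gene, in nt from the last base of the stop codon (dotted line). Dark bars are intervals given to the nhr gene, pale bars those given to neither gene or to the named neighbour; black ticks are annotated ends of the nhr gene (the arrow marks ends of nhr-97 at 934 to 940 nt) and blue arrowheads the neighbour's stop codon. In 9 rows the bar starts just before the dotted line, and in the 5 rows with a neighbour it also reaches past that gene's stop codon.

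Among the receptors with counterparts in flies and vertebrates, 1 of 11 listed genes had a 3′ interval (9.09%, 0.230 to 41.3). This was nhr-23, a receptor of the ROR and Drosophila DHR3 type that is needed for moulting. Its interval (chromosome I, 7220927 to 7221123) was 197 nt long, began 21 nt upstream, counted through the stop codon, and ran 176 nt past it, all within the last exon. Annotated nhr-23 transcripts end 99, 276 and 347 nt after the stop codon, besides models that stop at the stop codon itself. The interval therefore ended between annotated forms, 77 nt past the first and 100 nt short of the next (−100 nt). The other 10 had none: nhr-6 (NR4A type, spermatheca), nhr-8 (related to DAF-12), nhr-14, nhr-25 (FTZ-F1 and SF-1 type, epidermis and gonad), nhr-41, nhr-48, nhr-67 (Tailless type, anchor cell and neurons), nhr-85 (E75 and Rev-Erb type, developmental timing), nhr-91 (GCNF type) and nhr-111. The longest annotated 3′ UTRs of the 11 ranged from 41 nt (nhr-8) to 950 nt (nhr-85).

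Of 12 listed receptors of metabolism and stress none was met by an interval (upper limit 26.5%). They include nhr-49, a regulator of fatty acid oxidation and desaturation, and its partners nhr-13, nhr-66 and nhr-80, as well as nhr-10 and nhr-68 of the propionate shunt, nhr-114 of the vitamin B12 response, nhr-62, nhr-76, nhr-86, nhr-176 and nhr-57, a hypoxia response gene. Their longest annotated 3′ UTRs ranged from 54 nt (nhr-176) to 556 nt (nhr-49).

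The longest receptor 3′ UTR in the list was that of nhr-34. Its interval (IV, 9664339 to 9664697) measured 359 nt and reached 322 nt past the stop codon, farther than in 89.4% of the 3279 genes with an interval that started at the stop codon. It ended 2 nt short of an annotated end (−2 nt), and the gene's annotated ends at 317, 319 and 324 nt all lay within 5 nt of it. On the same chromosome, nhr-97 (IV, 9763504 to 9763645) gave a short interval of 142 nt with 109 nt after the stop codon. Along the genome, annotated nhr-97 transcripts end 934 to 940 nt after the stop codon, so the interval ended 825 nt upstream of the nearest one (−825 nt). The interval's end lay 85 nt from the nearest annotated exon edge, away from any annotated splice site. That edge was nearer than any annotated transcript end, so these distances need not be lengths of spliced 3′ UTR.

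Among the 9 intervals that started at the stop codon, the shortest stretch after it was that of nhr-109 (II, 4435100 to 4435229), with 92 nt in an interval of 130 nt. Annotated nhr-109 transcripts end 22, 25 and 205 nt after the stop codon, besides models without a 3′ UTR, so this end too fell between annotated forms, 67 nt past the nearest. On chromosome V, nhr-140 (6987845 to 6987986, 142 nt) ended 104 nt after the stop codon and 3 nt past its only annotated end. nhr-204 (254838 to 255013, 176 nt) ended 144 nt after the stop codon and 5 nt past its annotated end; with the second estimate of the shift, −1 in place of −5 nt, the end lies closer still. nhr-142 (5785904 to 5786080, 177 nt) ended 147 nt after the stop codon, 38 nt past the longer of 2 annotated ends at 107 and 109 nt. In these 7 genes (nhr-23, nhr-34, nhr-97, nhr-109, nhr-140, nhr-204 and nhr-142) the interval started at the stop codon and met no other gene.

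**Figure D2:**
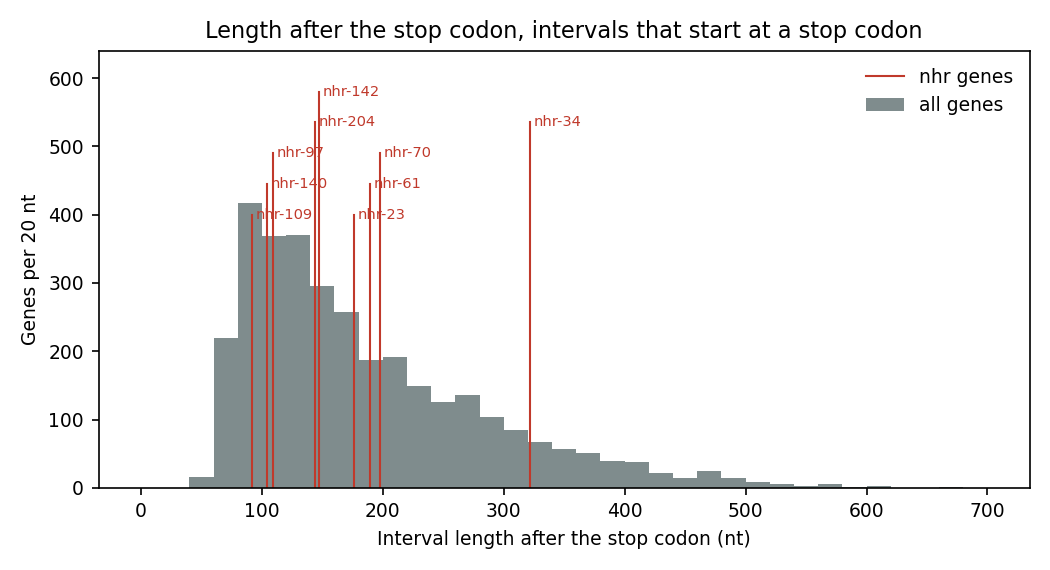
Length after the stop codon (nt) for the intervals that start at a stop codon: the histogram counts all 3279 such genes, the longest interval of each, per 20 nt, and the red lines mark the 9 nhr genes. The nhr values spread from 92 nt (nhr-109) to 322 nt (nhr-34) and all fall inside the range of the histogram.

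The recovered receptor intervals ran 92 to 322 nt past the stop codon, and only nhr-34 exceeded the upper quartile of all genes, 237 nt. Over the 7 that met no other gene the median was 144 nt. The median length after the stop codon was 147 nt over the 9 nhr genes (95% interval 104 to 198 from order statistics) and 156 nt over all 3279 genes (152 to 160), with interquartile ranges of 109 to 189 nt and 108 to 237 nt. The 5′ edge lay 21 to 38 nt upstream of the stop codon's last base in the 9 nhr genes, with a median of 32 nt, against a median of 33 nt and an interquartile range of 28 to 38 nt in all genes. The fit of the shifts looked for stop codons 32 nt past a 5′ edge, and the rule allowed at most 60 nt. These stretches are therefore not independent of the procedure. Whole intervals of the 13 nhr genes had a median of 177 nt and ranged from 119 to 359 nt, against a median of 183 nt and a range of 96 to 839 nt in the list. With 9 genes the interval of the median is wide, and a difference smaller than that interval could not be seen.

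Some recovered ends fell near annotated ends and others away from them. In 4 of 9 (nhr-34, nhr-70, nhr-140 and nhr-204; 44.4%, 13.7 to 78.8) the end lay within 20 nt of an annotated end, against 1970 of 3279 in all genes (60.1%, 58.4 to 61.8). Another 4 (nhr-23, nhr-61, nhr-109 and nhr-142) ended 38 to 80 nt past the nearest annotated end, a class that held 18.8% of all genes. Of these, nhr-23 and nhr-109 still ended 100 nt and 113 nt short of a longer annotated form (−100 and −113 nt). Only nhr-61 and nhr-142 passed their longest annotated end, and the interval of nhr-61 also met a neighbouring gene. nhr-97 alone ended more than 20 nt upstream, as 21.2% of all genes did. The confidence interval of the nhr share includes that of all genes. It is not known here whether the annotation drew on these clones.

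Several receptor genes end towards a neighbour on the opposite strand, and the list gives no strand. In 5 of the 13 nhr intervals (38.5%, 13.9 to 68.4) the 3′ end of such a neighbour was also met. Counted in the same way, as pairs of a gene and an interval, the value over all genes was 998 of 4331 (23%, 21.8 to 24.3), which lies inside the nhr interval. Among intervals that started at the gene's stop codon it was 2 of 9 for nhr genes (22.2%, 2.81 to 60.0), against 565 of 3284 (17.2%, 15.9 to 18.5). In these 2 nhr intervals both genes had their stop codon just inside an edge, and the interval was given to neither. The interval of nhr-70 (V, 18619979 to 18620201, 223 nt) began 25 nt upstream of the last base of the nhr-70 stop codon, and its other edge lay 29 nt before that of Y69H2.1. Read as nhr-70 it ended 2 nt short of the annotated end (−2 nt), and read as Y69H2.1 it ended 160 nt past the annotated end. The interval between nhr-61 and W01D2.1 (II, 14815957 to 14816173, 217 nt) began 28 nt upstream of the last base of the nhr-61 stop codon, with its other edge 41 nt upstream of that of W01D2.1. It ran 80 nt past the annotated end of nhr-61 and 132 nt past that of W01D2.1, so neither reading met an annotated end. A product of either gene, or joined products of both, cannot be told apart.

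In the other 3 the neighbour's stop codon lay near an edge and that of the nhr gene did not, so the interval was given to the neighbour. The interval over the 3′ UTR of nhr-37 (V, 6624680 to 6624798, 119 nt) began 38 nt upstream of the last stop codon base of ppt-1, a palmitoyl-protein thioesterase gene, and ended 5 nt past the annotated ppt-1 end. It began 39 nt after the nhr-37 stop codon and covered 104 nt of its 3′ UTR. The interval over nhr-47 (V, 5509917 to 5510055, 139 nt) ended 2 nt short of the annotated end of hpo-15 (−2 nt) and covered 25 nt of the nhr-47 3′ UTR. The interval over nhr-136 (V, 12109140 to 12109388, 249 nt) began 24 nt upstream of the last stop codon base of lhpp-1, ended 114 nt short of the annotated lhpp-1 end (−114 nt) and covered 154 nt of the nhr-136 3′ UTR. For nhr-37, nhr-47 and nhr-136 the list thus holds no interval that started at the receptor's own stop codon.

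nhr-135 had an interval mostly of coding sequence. It (V, 7091769 to 7092056, 288 nt) began 268 nt upstream of the last stop codon base, held 263 nt of coding sequence and ended 20 nt after the stop codon, 73 nt upstream of the annotated end (−73 nt). Its 5′ edge lay 2 nt from an annotated exon edge. The 23 nt of stop codon and 3′ UTR it covered were the smallest overlap among the 13, followed by the 25 nt of nhr-47. The gene just outside the limit was nhr-112, with an interval (V, 16721934 to 16722038, 105 nt) that began 86 nt after the stop codon and shared 7 nt with its last exon.

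**Figure D3:**
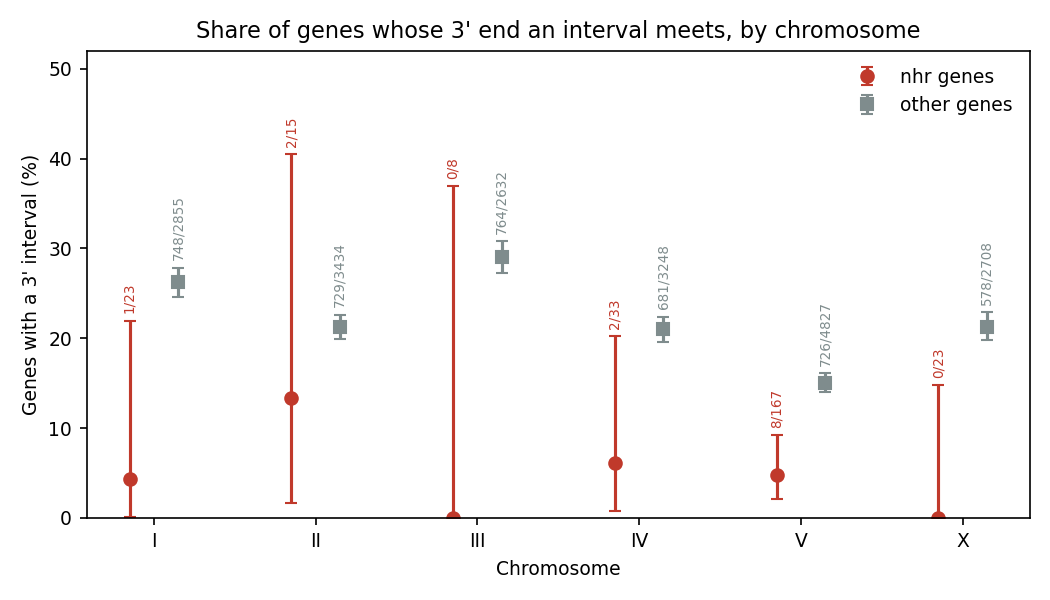
Percentage of genes with a 3′ interval on each chromosome, nhr genes (red circles) left of the other protein-coding genes (grey squares), with exact 95% intervals and counts. The nhr point is the lower of the pair on all 6 chromosomes, from 0 on III and X to 13.3% on II.

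The family is concentrated on chromosome V, with 167 of 269 genes (62.1%), and this chromosome gave few intervals for other genes as well. On V, 8 of 167 nhr genes had a 3′ interval (4.79%, 2.09 to 9.22), against 726 of 4827 other genes (15%, 14 to 16.1). Over the other chromosomes, 5 of 102 nhr genes had one (4.90%, 1.61 to 11.1), against 23.5% of the other genes (22.8 to 24.2). No interval was found for the 23 nhr genes of the X chromosome, with an upper limit of 14.8%, against 21.3% of its other genes, nor for the 8 of chromosome III, with an upper limit of 36.9%, against 29%. Had nhr genes been met at the share of the other genes in their own 1 Mb window, 41.6 genes would have had a 3′ interval in place of 13, and at the share of their chromosome 48.5.

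The annotated 3′ UTRs of the family were compared next. An annotated 3′ UTR was present in 245 nhr genes (91.1%), against 84.0% of the other genes, and its median length was 106 nt, against 131 nt. The shortest interval in the list had 96 nt and the median stretch through the stop codon 33 nt, and their difference of 63 nt was used as the limit between length classes. Of the nhr genes 77 had an annotated 3′ UTR of 1 to 62 nt (28.6%, against 16.7% of the other genes), and none of these had an interval (upper limit 4.68%), against 270 of 3299 other genes (8.18%, 7.27 to 9.17). From 63 nt upwards, 13 of 168 nhr genes had an interval (7.74%, 4.18 to 12.9), against 3870 of 13250 other genes (29.2%, 28.4 to 30.0). Weighting the other genes to the chromosomes and 3′ UTR length classes of the nhr genes gave 50.1 genes. It is not known here whether the annotation drew on these clones, so the length classes may not be independent of the intervals.

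**Figure D4:**
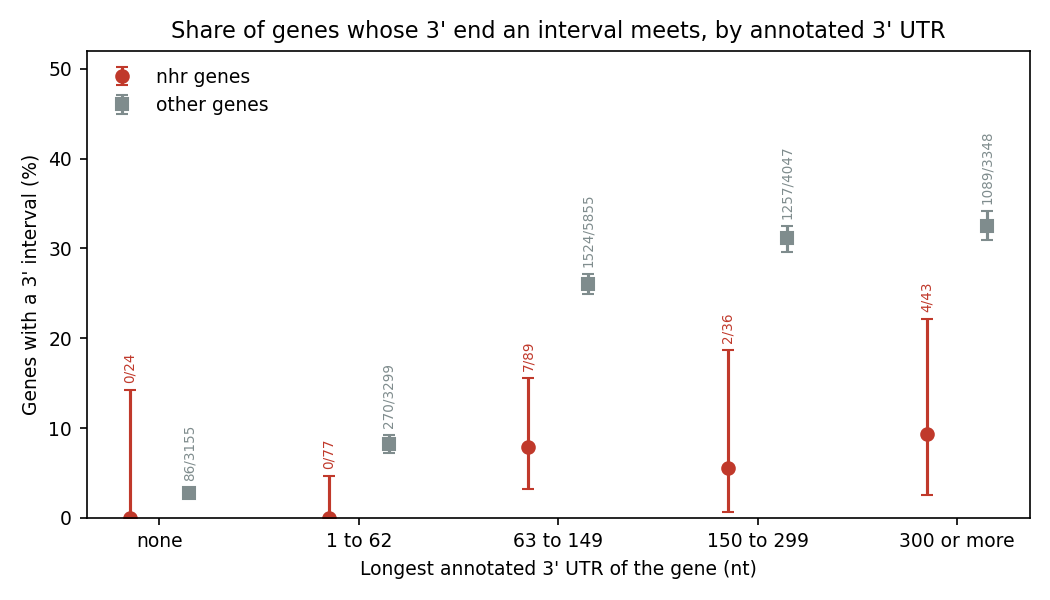
Percentage of genes with a 3′ interval by the longest annotated 3′ UTR of the gene (nt), nhr genes (red circles) left of the other genes (grey squares), with exact 95% intervals and counts. The nhr share stays between 5.56% and 9.30% from 63 nt upwards, while that of the other genes lies between 26.0% and 32.5%.

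Many nhr genes stand in clusters, where near copies could share reads, and the handling of reads with several matches is unknown here. Another nhr gene lay within 10 kb of 159 of them, of which 4 had a 3′ interval (2.52%, 0.690 to 6.32). Of the 110 without such a neighbour, 9 had one (8.18%, 3.81 to 15). The 4 in clusters were nhr-109 (beside nhr-273), nhr-135 (beside nhr-286), nhr-136 (beside nhr-153) and nhr-140 (beside nhr-139), and none of these neighbours had an interval of its own. The 2 shares have overlapping confidence intervals, and the difference was not tested.

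Other gene families, of transcription factors, cuticle collagens and signalling peptides, were compared by the same rule. Homeobox genes named ceh-, a further family of transcription factors, were met in 7 of 63 genes (11.1%, 4.59 to 21.6), an interval that includes both the nhr share of 4.83% and the share of 21.2% over all genes. Cuticle collagen genes named col- were met in 35 of 156 (22.4%, 16.2 to 29.8), and neuropeptide and insulin-like genes (nlp-, flp- and ins-) in 34 of 140 (24.3%, 17.4 to 32.2). Of these families 19%, 19.9% and 16.4% of the genes lie on chromosome V, against 62.1% of the nhr genes. No test was made, since the choice of targets may differ between families.

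Nuclear receptor genes with other names were not met either. None of 6 had a 3′ interval (up to 45.9%): daf-12, the receptor of the steroid hormone dafachronic acid, sex-1, which acts in counting X chromosomes, odr-7, fax-1 and unc-55, which set neuron identities, and hizr-1, a zinc sensor. Of 9 listed partner and ligand pathway genes, ncr-2 and mdt-15 had an interval (22.2%, 2.81 to 60.0). The interval of ncr-2, a cholesterol transporter gene of the NPC1 type (III, 8265574 to 8265730), ran 124 nt past the stop codon and 7 nt past the annotated end. mdt-15 encodes the Mediator subunit that works with NHR-49. Its interval (III, 5829073 to 5829230) lay wholly inside the 3′ UTR, from 950 to 1107 nt after the stop codon, and ended 526 nt upstream of the nearest annotated end (−526 nt). Of 6 listed target genes, fat-6 and acdh-1 had an interval (33.3%, 4.33 to 77.7). fat-6, a stearoyl-CoA desaturase gene controlled by NHR-49 and NHR-80, ended 131 nt after the stop codon (IV, 11913660 to 11913825), 4 nt past the annotated end. acdh-1, an acyl-CoA dehydrogenase gene of the propionate shunt controlled by NHR-10 and NHR-68, was met by overlap only (I, 6499285 to 6499568). Its interval began 179 nt upstream of the last stop codon base and ended 105 nt after it, 9 nt past an annotated end. The longest annotated 3′ UTR of acdh-1 was 593 nt. Neither the desaturase genes fat-5 and fat-7, nor acs-2 and hacd-1, nor daf-9, daf-36, dhs-16, hsd-1, strm-1, ncr-1 and din-1 had an interval. Each of the 5 short lists has a confidence interval that includes 21.2%, the share over all genes.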

How the data were processed

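The data are 1 library of cloned 3′ RACE products from mixed-stage N2 worms. The authors deposited a list of 4818 intervals in 6 columns, as chromosome, start, end, a constant name, score and strand; the deposited score column holds 0 and the strand column a plus sign throughout, and neither was used. Per the labels' protocols the products were made with an oligo-dT primer and a primer for each transcript. Assembly of reads, aligner, filters, genome build and read depth are unknown here, so no precision from depth can be given. Ensembl release 115 on WBcel235 served as annotation.

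Windows of 1 Mb were moved by up to 6000 nt to the shift with the most stop codons near the expected stretch past a 5′ edge, within 10 nt. It was then refined from the difference between the strands' median stretches, with at least 3 stop codons per strand, and 5 windows were widened to 3 Mb. A step on chromosome V was placed inside its window. Genes named nhr- were left out of these fits. Where several genes were met, the interval went to the gene with its stop codon near the edge, if there was only 1. Joined ends lay at most 20 nt apart. No test between groups was possible with 1 library; intervals of shares are exact (Clopper-Pearson, 95%) and those of medians come from order statistics. The functions were tested on simulated intervals. All of these started just before a stop codon, and their shift changed only in steps. The test therefore does not cover other kinds of interval or gradual shifts. The text names every nhr gene with an interval, those of short role lists, and nhr-112 and the neighbours of clustered genes, chosen after their values were seen. Members, lists and settings were chosen with earlier results of these data known. No base sequence was used. Python 3.11.15, numpy 2.4.6, scipy 1.17.1 and matplotlib 3.10.9 were used.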

Additional observations from a re-analysis of the deposited data

How the results depend on the processing

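The count of 13 nhr genes with a 3′ interval stayed between 9 and 14 under 10 other settings and 1 added after seeing the data, a shift from annotated ends. Some of these settings could not lower it. Joining ends at most 10 or 100 nt apart acts only on the number of ends per gene. A limit of 30 nt before the stop codon's end could drop none of the 13, since each also overlapped by at least 23 nt. It was 12 with 3 Mb windows (without nhr-70), 11 with an overlap of at least 50 nt (without nhr-47 and nhr-135), 14 with 1 nt (nhr-112 gained) and 9 with the stop codon alone (without nhr-37, nhr-47, nhr-135 and nhr-136). The share over all genes ran from 16.4% to 21.6% under the same settings, above that of nhr genes (3.35% to 5.2%) each time. The median length after the stop codon ran from 139 to 182.5 nt. The number of nhr ends within 20 nt of an annotated end, 4 as reported, was 2 without any shift, when 7 intervals still started at a stop codon, and 1 with a limit of 30 nt before the stop codon's end, which keeps 4 such intervals. No paired analysis was possible because there is 1 library. What limits these results is the unknown choice of targets and the lack of strand and read counts.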

Other observations

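Other large gene families were looked at after the nhr values were known, by the same rule and with no test. Chemoreceptor genes of the sr families, G protein-coupled receptors mostly of sensory neurons, were met in 24 of 1270 genes (1.89%, 1.21 to 2.80), and 68.7% of them lie on V. C-type lectin genes named clec- were met in 15 of 240 (6.25%, 3.54 to 10.1) and F-box genes of the fbxa-, fbxb- and fbxc- groups in 30 of 322 (9.32%, 6.37 to 13.0), with 35.8% and 27% of their genes on V. The detoxification enzyme genes, to which several receptors of the family are linked in the response to toxins, were met in 9 of 67 UDP-glucuronosyltransferase genes named ugt- (13.4%, 6.33 to 24.0) and 8 of 74 cytochrome P450 genes named cyp- (10.8%, 4.78 to 20.2). Of these 62.7% and 55.4% lie on V. Over all protein-coding genes, 25% lie on V and 21.2% had a 3′ interval.

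Besides the intervals of the 13, there were 15 that lay in or within 1000 nt of 11 nhr genes without meeting their 3′ ends. Of these, 7 lay outside the nhr gene, and 6 met the 3′ end of another gene. In the whole list 3832 of 4818 intervals met a 3′ end, but the 15 leave out by rule those at nhr 3′ ends. The same counts around other genes are not given here, so the 15 are described only as single cases. In nhr-19 an interval of 183 nt (II, 9599213 to 9599395) was coding throughout and began 1000 nt before the stop codon. In nhr-274 an interval of 110 nt (IV, 1645135 to 1645244) was coding throughout and began 6589 nt before it. A further 5 lay in introns, 4 of them in nhr-27 and 1 in nhr-17, and 1 of those in nhr-27 met the 3′ end of pgp-14. The 4 in nhr-27 began 27936 to 94043 nt before its stop codon, and the 1 in nhr-17 began 1003 nt before its own. Beyond nhr-105 an interval of 182 nt (IV, 7053583 to 7053764) began 232 nt after the stop codon and met no 3′ end. By number, 7 of 94 nhr genes below nhr-100 were met (7.45%, 3.05 to 14.7), against 6 of 175 from nhr-100 on (3.43%, 1.27 to 7.31), with overlapping intervals.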
